A study of Mus musculus with 4 samples.

Results

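The 35 genes described here encode subunits of the Polycomb repressive complexes PRC2 and PRC1 and of the COMPASS family of histone methyltransferases. They were taken by gene symbol from a table of 23922 genes measured in mouse embryonic stem cells of the E14 line, and all 35 were present. There were 11 genes of PRC2, 17 of PRC1 and 7 of COMPASS. RNA came from 4 libraries. In 2 of them cells had been transfected with esiRNA (many short interfering RNAs diced enzymatically from 1 long duplex) against PNLDC1. In the other 2 the esiRNA was against LUC, the luciferase of a reporter that mouse cells lack. All libraries share the E14 line, the transfection reagent, culture on gelatin with 100 U/mL leukemia inhibitory factor (LIF), and total RNA from which ribosomal RNA and RNA under 200 nt had been removed. PNLDC1 is a PARN-like nuclease that trims the 3′ ends of RNA, and the comparison asks which transcripts differ after its silencing.

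The authors' deposited table gives each gene 1 value in each of 2 conditions, q1 and q2. The file names no unit; the values are taken as FPKM (fragments scaled to transcript length and library size), which is what Cuffdiff writes in these columns. Which esiRNA q1 or q2 stands for is not given in the labels or the header, so every difference is given as higher in q1 or higher in q2 and none as an effect of silencing. Single libraries have no columns of their own, and an SD could not be computed for any value. The authors' Cuffdiff test, which compares the conditions gene by gene, is the measure of replicate error, at a q (its adjusted p) under 0.05. The labels do not state whether a group's libraries were separate cultures, so these p-values may measure technical spread alone. Pnldc1 itself had 18.1 FPKM in q1 and 26.8 in q2 and did not pass in the authors' deposited table (p = 0.118, q = 0.399). These values do not show whether its RNA was lowered by the esiRNA. Low values fell in steps, from which the conditions were estimated to hold 1210000 (q1) and 1400000 (q2) fragments. On that estimate the tested members had 56.5 to 1359 fragments in q1 and 80.9 to 1331 in q2. The 10 markers of embryonic stem cells were all tested; none passed and 3 had an unadjusted p under 0.05 (30%, against 18.8% of all tested genes). Of these Klf4 was higher in q1 (27.5 and 18.2 FPKM), and Dppa4 (58.1 and 82.2) and Dppa5a (641 and 817) were higher in q2. With a trend in length and GC content removed (set out under transcript features), the log2 ratios of q2 over q1 were -0.71 for Klf4, 0.34 for Dppa4 and 0.09 for Dppa5a. Pou5f1, which marks these cells, had 714 FPKM in q1 and 865 in q2. Its log2 ratio was 0.28, or -0.07 with the trend removed.

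PRC2 methylates lysine 27 of histone H3 through its catalytic subunit EZH1 or EZH2, with EED and SUZ12 as obligate partners and RBBP4 or RBBP7 as histone-binding subunits. PRC1 ubiquitylates histone H2A through RING1 or RNF2, paired with 1 PCGF protein. Canonical PRC1 adds a CBX protein that reads the PRC2 mark and a PHC protein, while variant PRC1 carries RYBP or YAF2 in place of the CBX. COMPASS methylates lysine 4 of histone H3 at promoters and needs the shared core of WDR5, RBBP5, ASH2L and DPY30. In embryonic stem cells Polycomb holds developmental genes silent, and many of their promoters carry both marks.

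Promoters of Polycomb genes are shown for the catalytic paralogues of PRC2, of which Ezh2 prevailed over Ezh1, and for Suz12, the member nearest to the threshold of the authors' test. The 250 bases before the annotated start are given 5′ to 3′ on the strand of the gene, from RefSeq on GRCm38.p6, with each CpG in capitals. They lie at chr6:47595031-47595280 (minus strand) for Ezh2, chr11:101226464-101226713 (minus strand) for Ezh1 and chr11:79992856-79993105 (plus strand) for Suz12. The starts are those of RefSeq. In GENCODE M21, used for the other coordinates, Ezh2 reaches to 47595341, so its window lies inside that gene model.
Ezh2: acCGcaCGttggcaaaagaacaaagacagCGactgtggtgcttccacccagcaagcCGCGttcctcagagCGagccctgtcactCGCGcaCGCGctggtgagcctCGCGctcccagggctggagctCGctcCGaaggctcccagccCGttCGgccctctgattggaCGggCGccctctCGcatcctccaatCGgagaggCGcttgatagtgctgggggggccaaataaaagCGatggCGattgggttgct
Ezh1: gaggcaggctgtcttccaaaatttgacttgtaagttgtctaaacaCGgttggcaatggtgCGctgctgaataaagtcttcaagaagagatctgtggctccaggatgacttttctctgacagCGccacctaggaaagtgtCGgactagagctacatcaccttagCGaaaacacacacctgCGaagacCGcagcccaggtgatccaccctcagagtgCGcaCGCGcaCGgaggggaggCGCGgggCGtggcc
Suz12: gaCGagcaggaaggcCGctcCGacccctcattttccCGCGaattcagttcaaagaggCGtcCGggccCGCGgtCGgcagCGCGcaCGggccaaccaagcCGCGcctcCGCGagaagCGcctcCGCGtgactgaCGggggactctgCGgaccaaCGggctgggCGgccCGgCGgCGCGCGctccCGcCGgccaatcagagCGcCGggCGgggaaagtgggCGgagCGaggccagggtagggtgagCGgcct
These windows hold 23 CpG in Ezh2, 14 in Ezh1 and 37 in Suz12. In the full RefSeq window of 300 bases (250 before and 50 after a start), 29 of the 35 members could be matched, with a median of 24 CpG; for genes with several starts the first listed was taken. The median was 23.5 over the 20 tested members among these, 23 over 4254 tested genes and 7 over all 27025 promoters. The member median is thus close to that of the tested genes.

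None of the 22 tested members passed the authors' Cuffdiff test at a q under 0.05, in either direction. Over all 5719 tested genes 4.25% passed, 1.94% as higher in q1 and 2.31% as higher in q2, so a list of this size need not hold any. In RNA of whole cultures, fewer cells that express a gene and less RNA per cell cannot be told apart. At an unadjusted p under 0.05 there were 2 members, Suz12 and Mtf2, both of PRC2 and both higher in q1. They are 9.09% of the 22, where 18.8% of all tested genes had such a p and 8.29% had it as higher in q1 and 10.5% as higher in q2. At a q under 0.10 there was 1 member, Suz12, where 7.36% of all tested genes passed. The median log2 ratio of q2 over q1 was 0.01 for the members and 0.06 for all tested genes, and the median size of the ratio was 0.21 and 0.27. The largest difference among the tested members was 1.55-fold.

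**Figure D1:**
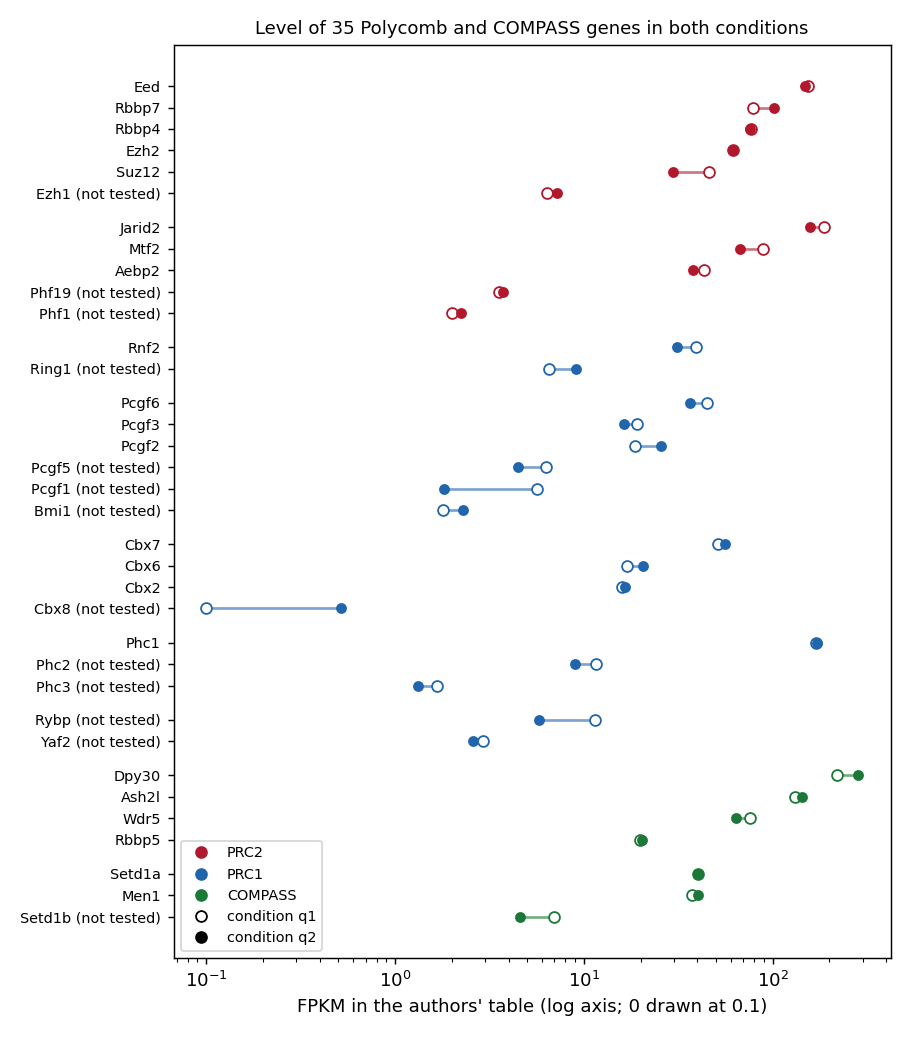
FPKM of the 35 members in the authors' table, by complex and subunit class, on a log axis, with open circles for condition q1 and filled circles for q2. No error can be drawn, since each condition has 1 value; the 13 genes marked as not tested all lie under 12 FPKM, and the widest gap among tested genes is that of Suz12.

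The core of PRC2 was well expressed, with the exception of Ezh1. Ezh2, the catalytic subunit of dividing cells, had, in the authors' deposited table, 61.4 FPKM in q1 and 61.7 FPKM in q2 (log2 ratio 0.01 ± 0.20 SE, q = 0.988). The errors here were calculated back from the authors' p-value. Its paralogue Ezh1, which has the weaker methyltransferase activity and prevails in resting tissues, had 6.38 and 7.20 and was not tested by the authors. Ezh2 thus held 90.6% of the summed FPKM of the pair in q1 and 89.5% in q2. Eed, the subunit that binds the methyl mark and stimulates the enzyme, was the highest of the core at 155 in q1 and 149 in q2 (log2 ratio -0.06 ± 0.17 SE, q = 0.883). The histone-binding subunits Rbbp4 (77.3 and 75.9 FPKM) and Rbbp7 (78.5 and 102) were at similar levels in q1. Rbbp7 had a log2 ratio of 0.38 ± 0.22 SE and did not pass (p = 0.0801, q = 0.332 in the authors' deposited table). Both also serve other chromatin complexes, and both have near-identical transcripts elsewhere in the annotation, 2 for Rbbp4 and 1 for Rbbp7, so their values are uncertain.

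Suz12, without which the complex is unstable, showed the largest difference of the tested members. It had, per the authors' deposited table, 46.3 FPKM in q1 and 29.8 FPKM in q2, 1.55-fold higher in q1 (log2 ratio -0.64 ± 0.21 SE, 95% interval -1.05 to -0.22, p = 0.00245, q = 0.0531). On this result the call turned with the genes included. When tested genes whose higher value was under 20 FPKM were left out, a setting chosen after the values were seen, its Benjamini-Hochberg adjusted p over the remaining 4615 genes was 0.0458. The ratio was -0.33 once a trend with length and base composition, set out under transcript features, was taken out. Suz12 lies on chromosome 11 from 79993106 to 80034123 (GRCm38) and a non-coding gene, Gm26563, overlaps it on the opposite strand. No source used here says whether counting used strand, so reads of the pair may not be separated.

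Accessory subunits steer PRC2 to its sites and fall into classes that exclude each other. In the first, Mtf2, a Polycomb-like protein that binds unmethylated CpG, had 89.3 FPKM in q1 and 66.9 in q2 (log2 ratio -0.42 ± 0.17 SE, p = 0.0174, q = 0.160 in the authors' deposited table). It lies on chromosome 5 from 108065674 to 108109004, where Tmed5 overlaps it on the opposite strand, a short stretch of it is near-identical in 1 other annotated gene, and its ratio was 0.03 with the length and GC trend removed. The other Polycomb-like genes were far lower and not tested: Phf19 had 3.58 and 3.72 FPKM and Phf1 had 2.01 and 2.23. Mtf2 accounted for 94.1% of the summed FPKM of these 3 genes in q1 and 91.8% in q2. In the second class, Jarid2, which binds nucleosomes ubiquitylated by PRC1, was the second highest of all members in q1, at 187, and had 159 in q2 (log2 ratio -0.24 ± 0.15 SE, q = 0.393). Its partner Aebp2, a zinc finger protein, had 43.5 and 38.0 (log2 ratio -0.19 ± 0.40 SE, q = 0.826). Jarid2, Aebp2 and Mtf2, the tested accessory subunits among the members, thus had their higher value in q1. Epop, a PRC2 partner outside the members, was higher in q2 (216 FPKM in q1 and 239 in q2). Of the 8 tested PRC2 members 6 were higher in q1 and 2 in q2, where 55.3% of all tested genes with a ratio were higher in q2. None of the 8 passed the authors' test. The median log2 ratio of the 8 was -0.12. With the trend removed it was -0.03, and 4 of the 8 were higher in q1; recentred on the upper quartiles, 7 were.

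**Figure D2:**
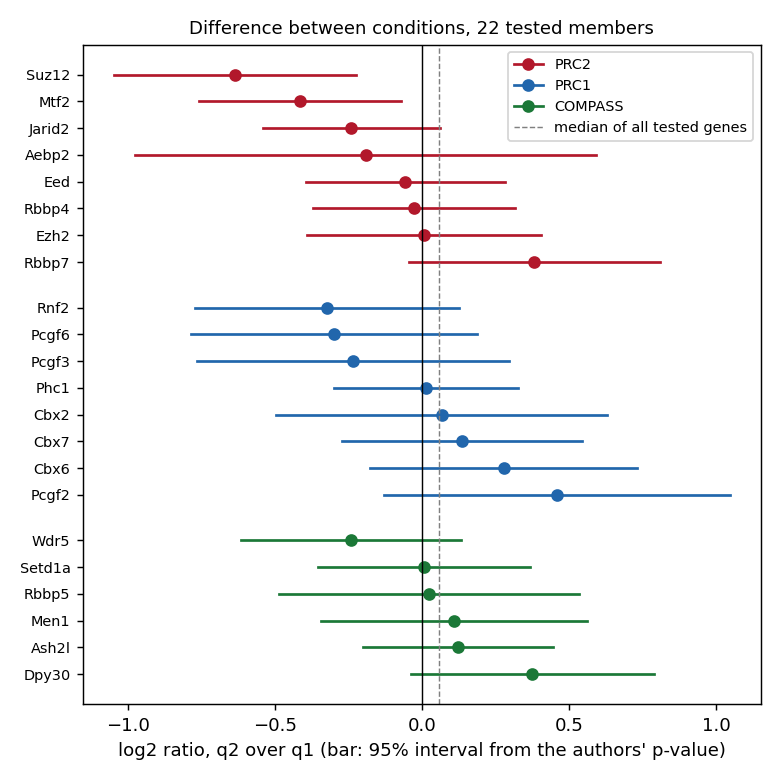
Log2 ratio of q2 over q1 for the 22 tested members (points), with 95% intervals calculated back from the authors' p-values (bars) and the median of all tested genes (dashed line). The intervals of Suz12 and Mtf2 leave out 0 before adjustment for the number of genes, and 20 of the 22 intervals lie within a 2-fold difference in either direction.

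In PRC1, the E3 ligase Rnf2, also called RING1B, had 39.1 FPKM in q1 and 31.3 in q2 (log2 ratio -0.32 ± 0.23 SE, q = 0.450 in the authors' deposited table). Ring1 had 6.58 and 9.11 and was not tested. Rnf2 made up 85.6% of the pair in q1 and 77.5% in q2. Neither share has an error, since each condition is 1 value.

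The PCGF protein defines the kind of PRC1. Pcgf6, of the variant complex with MGA and L3MBTL2 that acts on germline genes, was the highest of the 6 PCGF genes, at 45.1 FPKM in q1 and 36.6 in q2 (log2 ratio -0.30 ± 0.25 SE, q = 0.531). Next were Pcgf2, also called MEL18, which forms canonical PRC1, with 18.8 and 25.8 (log2 ratio 0.46 ± 0.30 SE, q = 0.412), and Pcgf3 with 19.2 and 16.3 (log2 ratio -0.24 ± 0.27 SE, q = 0.665). Pcgf2 and Pcgf3 stood in opposite order in the 2 conditions, and neither difference passed the authors' test. The remaining genes were not tested: Pcgf5 had 6.30 and 4.48 FPKM, Pcgf1, of the variant complex with KDM2B and BCOR, had 5.67 and 1.82, and Bmi1 had 1.79 and 2.30. On the step estimate the values of Pcgf1 rest on about 6.29 fragments in q1 and 2.34 in q2. Bmi1, a canonical PCGF that blood and neural stem cells need, lay 10.5-fold below Pcgf2 in q1 and 11.2-fold in q2. Pcgf1 and Bmi1 each have a near-identical transcript of another gene.

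Among the chromodomain proteins Cbx7 was the highest, at 51.1 FPKM in q1 and 56.1 in q2 (log2 ratio 0.13 ± 0.21 SE, q = 0.762 in the authors' deposited table). Cbx7 is the CBX of undifferentiated embryonic stem cells, and it held 60.9% of the summed FPKM of the 4 CBX members in q1 and 59.9% in q2. Cbx6 had 16.9 and 20.5 (log2 ratio 0.28 ± 0.23 SE) and Cbx2, which compacts chromatin, had 15.9 and 16.6 (log2 ratio 0.07 ± 0.29 SE). Cbx8 was listed at 0 in q1 and had 0.515 FPKM in q2. Cbx2 and Cbx8 are neighbours on chromosome 11, with 5.03 kb between them, and lie on opposite strands.

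Of the Polyhomeotic genes, whose proteins polymerise through a SAM domain, Phc1 was dominant. The authors' deposited table lists it at 170.3 FPKM in q1 and 172 in q2 (log2 ratio 0.01 ± 0.16 SE, q = 0.973), the highest of PRC1. Phc2 had 11.7 and 8.99 and Phc3 had 1.67 and 1.33, both not tested, so that Phc1 made up 92.7% of the PHC sum in q1 and 94.3% in q2. Rybp, the subunit of variant PRC1, had 11.4 FPKM in q1 and 5.79 in q2, and its paralogue Yaf2 had 2.92 and 2.59. Neither was tested, and on the step estimate the values of Rybp rest on about 62.3 and 36.5 fragments. A pseudogene, Rybp-ps, shares a stretch of near-identical sequence with Rybp. Over the 8 tested PRC1 genes 5 had the higher value in q2 and 3 in q1, with a median log2 ratio of 0.04. The share higher in q2 was 55.3% over all tested genes with a ratio. With ratios recentred on the upper quartiles of all tested genes 2 were higher in q2 (Pcgf2 and Cbx6) and 6 in q1, with a median of -0.10.

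**Figure D3:**
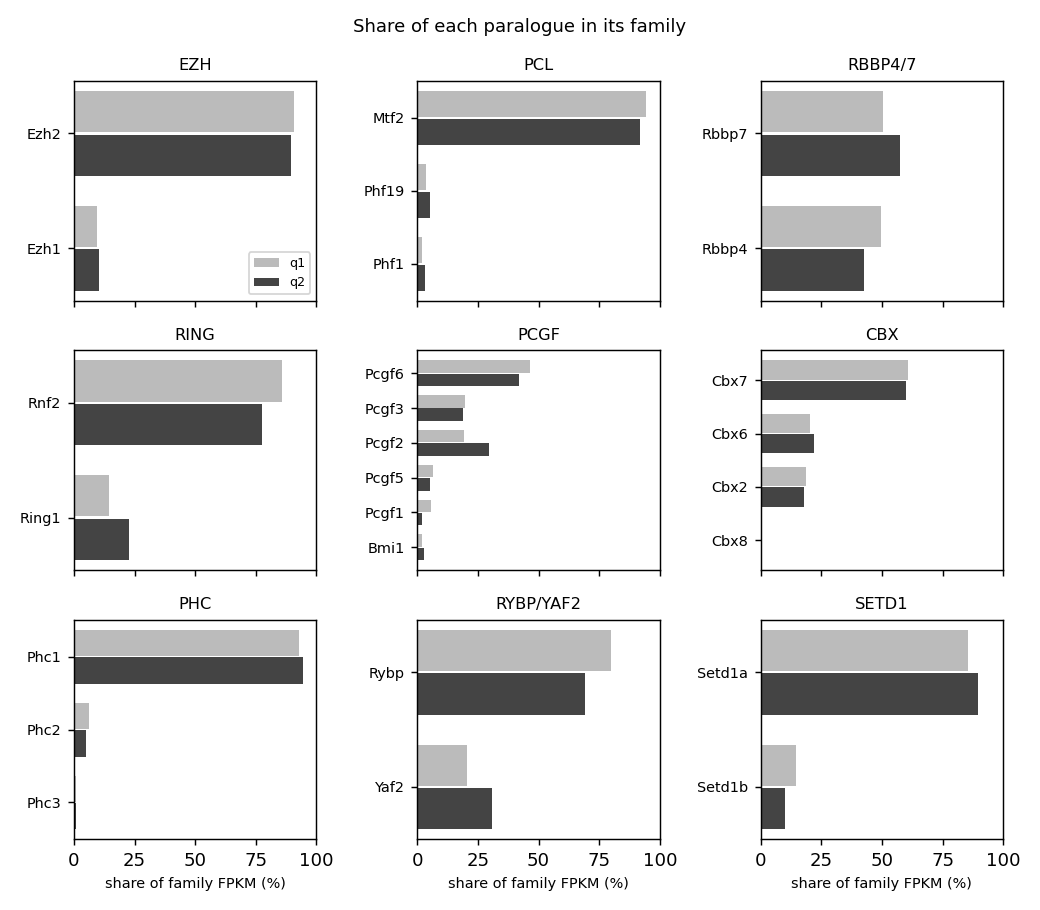
Share of each paralogue in the summed FPKM of its family in q1 (light bars) and q2 (dark bars), in percent. Ezh2, Mtf2, Rnf2, Phc1 and Setd1a each held between 77.5% and 94.3% of their family in both conditions, Rbbp4 held 49.6% of its pair in q1 and 42.6% in q2, and no share has an error because each condition has 1 value.

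The COMPASS core was measured in full. Dpy30, the small subunit that stimulates methylation, was the highest of all 35 members in both conditions, at 218 FPKM in q1 and 283 in q2 (log2 ratio 0.37 ± 0.21 SE, p = 0.0757, q = 0.323 in the authors' deposited table). At 789 nt its transcript is also the shortest. Ash2l had 131 and 143 (log2 ratio 0.12 ± 0.16 SE, q = 0.729). Wdr5, the scaffold that also occurs in the PRC1 variant of Pcgf6, had 76.0 and 64.2 (log2 ratio -0.24 ± 0.19 SE, q = 0.508). Rbbp5 was the lowest of the core at 19.9 and 20.2 (log2 ratio 0.02 ± 0.26 SE, q = 0.973), 11.0-fold below Dpy30 in q1 and 14.0-fold in q2. Dpy30, Ash2l and Rbbp5 each have 1 near-identical transcript elsewhere in the annotation.

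Setd1a, a catalytic subunit that embryonic stem cells require, had 40.2 FPKM in q1 and 40.3 in q2 (log2 ratio 0.00 ± 0.18 SE, 95% interval -0.36 to 0.37, q = 0.987). Its paralogue Setd1b had 6.93 and 4.58 and was not tested, which left Setd1a with 85.3% of the pair in q1 and 89.8% in q2. Men1 encodes menin, which ties the MLL-type enzymes to chromatin, and it had 37.3 and 40.2 (log2 ratio 0.11 ± 0.23 SE, q = 0.829 in the authors' deposited table). Of the 6 tested COMPASS genes 5 had the higher value in q2, with a median log2 ratio of 0.07, and none passed. Of all tested genes with a ratio 55.3% were higher in q2, and with ratios recentred on the upper quartiles 1 of the 6 was (Dpy30), with a median of -0.07.

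The order of the members by level was nearly the same in both conditions. Dpy30, Jarid2, Phc1, Eed and Ash2l were the first 5 in q1, and in q2 Jarid2 and Phc1 changed places. Summed FPKM of all 35 members was 1704 in q1 and 1702 in q2. By complex it was 750.1 and 695 for PRC2, 424 and 412 for PRC1, and 529.8 and 595 for COMPASS. These sums have no error, and Dpy30 alone accounts for most of the COMPASS difference.

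The 13 members that were not tested were the lowest, none above 11.7 FPKM, while every tested gene of the table reached at least 13.95 in 1 of the conditions. The 9 untested PRC1 genes outnumber the 3 of PRC2 and the 1 of COMPASS, so PRC1 is the complex for which the test covers the smallest part. Across the members, 16 of 35 overlap another annotated gene and 10 have a near-identical transcript elsewhere, 7 of them tested. Among tested members, Cbx6 and Setd1a overlap a protein-coding gene on the same strand (Npcd and Gm49388), so reads of these pairs may not be separated. Aebp2 shares a near-identical stretch with Gm14240. Of 12 untested members above 0 in both conditions, Pcgf1 and Rybp had the widest ratios, -1.64 and -0.98.

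Transcript features moved with the ratio across the table. Over 5256 tested protein-coding genes the log2 ratio had a Spearman's rho of 0.47 with GC content and -0.41 with transcript length. Over the 22 tested members rho was 0.49 with GC content and -0.30 with length. These are descriptions across genes that share the same libraries, and genes are not independent replicates. Mtf2 and Suz12, the tested members with the lowest ratios, have 38.2% and 41.6% GC and transcripts of 4060 and 4373 nt. Over all tested protein-coding genes the medians were 51.1% and 2708 nt. A plane through the 200 genes most alike in both features gave -0.44 for Mtf2 and -0.30 for Suz12.

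**Figure D4:**
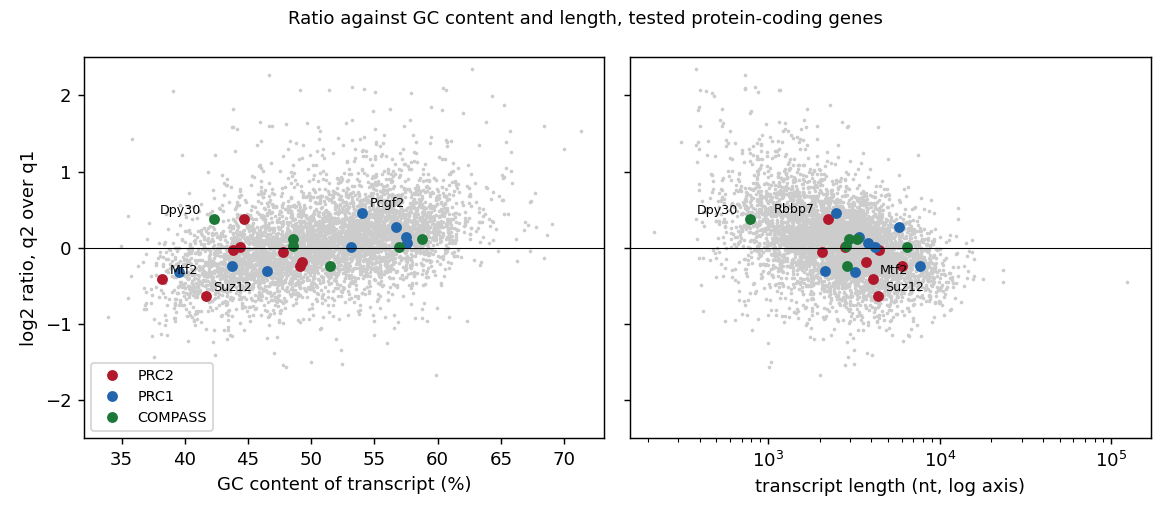
Log2 ratio of q2 over q1 against GC content (left) and transcript length (right, log axis) for 5256 tested protein-coding genes (grey) and the tested members (coloured by complex). Mtf2 and Suz12 lie at low GC content and above the median length of 2708 nt; 4 genes lie outside the vertical axis.

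Exact matches to 4 promoter motifs were counted on both strands of the RefSeq windows. The E2F letters TTTCCCGC or TTTGGCGC stood in 3 of 29 member promoters (10.3%), against 4.07% of the 4254 tested genes and 1.63% of all promoters. The 3 were Ezh2, Suz12 and Phf19. In Suz12 the match begins at -219 relative to the RefSeq start, within the printed window. In Ezh2 it begins at base 4 of the transcript as RefSeq places its start. The NRF1 letters GCGCA and GCGC with 1 base of any kind between them stood in 8 (27.6%, against 13.5% and 4.78%). CCAAT, bound by NF-Y, stood in 12 (41.4%, against 40.6% and 37.9%), and the ETS letters CCGGAAG in none of the 29 (24.0% of tested genes and 9.12% of all promoters). The 29 include 9 untested members. Over the 20 tested members alone the E2F letters stood in 2 (10%), the NRF1 letters in 6 (30%), CCAAT in 9 (45%) and the ETS letters in none. These counts describe letters in a window, not binding.

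Other genes of these pathways were read from lists that complete the complexes. Of 13 tested partners of PRC1 none passed the authors' test and 1 had an unadjusted p under 0.05 (7.69%, against 18.8% of all tested genes). The highest were Skp1a, an adaptor of the KDM2B complex (213 and 189 FPKM), and Usp7, a deubiquitinase (113 and 94.7). They were followed by Tfdp1, the partner of E2F6 (103 and 103), and L3mbtl2, an MBT-domain protein of the Pcgf6 complex (106 and 94.1). The 1 with a low p, named after its value was seen, was Mga, the scaffold of the Pcgf6 complex, at 34.2 in q1 and 24.2 in q2 (log2 ratio -0.50 ± 0.17 SE, q = 0.0618), or -0.09 with the trend removed. The PRC2 partner Epop, listed as E130012A19Rik, had 216 and 239 FPKM (q = 0.655), while Lcor and Lcorl were under 4 and not tested.

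Of 10 further COMPASS subunits tested, Bod1l passed as higher in q1, and 3 had an unadjusted p under 0.05 (30%, against 18.8%), 2 as higher in q1 and 1 as higher in q2. Bod1l, a partner of SETD1A at replication forks, had, by the authors' deposited table, 16.0 FPKM in q1 and 8.66 FPKM in q2 (log2 ratio -0.88, q = 0.00367), or -0.53 with the trend removed. Hcfc1, a shared cofactor, had 101 and 90.4, Wdr82, which links SETD1 enzymes to RNA polymerase, 61.6 and 66.4, and Pagr1a, of the KMT2C and KMT2D complexes, 60.4 and 62.1. None of these passed. The others with a low p, named after their values were seen, went in opposite directions and did not pass. Paxip1, of the KMT2C and KMT2D complexes, had 18.1 in q1 and 27.5 in q2 (log2 ratio 0.60 ± 0.22 SE, q = 0.0894), or 0.73 with the trend removed. Psip1, which links menin to chromatin, had 42.1 and 30.3 (log2 ratio -0.48 ± 0.23 SE, q = 0.235), or -0.23 with the trend removed. In PR-DUB, the complex that removes ubiquitin from histone H2A and so opposes PRC1, Asxl1 passed as higher in q1 among 5 tested genes, of which 2 (40%, against 18.8%) had an unadjusted p under 0.05. This cofactor of the enzyme had 36.8 FPKM in q1 and 21.9 in q2 (log2 ratio -0.75 ± 0.19 SE, q = 0.00608), and -0.68 with the trend removed. The enzyme itself, Bap1, had 53.6 and 56.5 (log2 ratio 0.08 ± 0.19 SE, q = 0.859), Ogt had 38.9 and 31.8 and Foxk2 25.0 and 20.3. Asxl2, the other with a low p and named after its value was seen, had 14.7 and 9.16 (log2 ratio -0.68 ± 0.24 SE, q = 0.0689), or -0.57 with the trend removed. In all, 1 of 10 and 1 of 5 tested genes of these lists passed, where 4.25% of all tested genes did.

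A list of 32 genes was chosen as Polycomb targets that are silent in embryonic stem cells. Their values were mostly near 0, which the choice of the list made likely, and the part of Polycomb in this was not tested. Of 32 such genes 17 were listed at 0 in both conditions, 7 in 1 of them, and Cdkn1a, an inhibitor of cyclin-dependent kinases, was the 1 that was tested (13.8 and 18.8 FPKM, q = 0.543 in the authors' deposited table). Cdkn2a, a tumour suppressor locus repressed by BMI1 and CBX7, had 6.15 in q1 and 13.9 in q2, Pax6 had 2.27 and 4.54, and Hoxd13 had 0.969 and 1.74, none of them tested. Markers of other cell types were low as well. The 8 fibroblast markers summed to 7.05 FPKM in q1 and 13.6 in q2, with 5 at 0 in both and Thy1 at 6.17 and 13.0. The 6 of primitive endoderm summed to 3.40 and 1.69, and the 6 of trophectoderm to 8.56 and 12.6, of which Krt8 was 5.00 and 10.7; neither Thy1 nor Krt8 was tested. The 6 neuroectoderm markers summed to 91.4 and 99.3, of which Tubb3, also made by embryonic stem cells, was 79.0 and 87.0.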

How the data were processed

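RNA of 4 libraries was measured, 2 per esiRNA, grouped by their titles. Per the submitters' processing notes the authors used TopHat and Cuffdiff with mm10 and GRCm38.p4; their versions and options, the annotation and any use of strand are not stated. Each gene of the deposited table has 1 value per condition (a unit the file does not name, taken as FPKM from Cuffdiff's column layout) and 3 outputs of the authors' test, namely a signed statistic (a score), a p-value and a q-value. The design foresaw the authors' test for such a table. The deposited log2 fold column was partly damaged and was not used; ratios were recomputed. A Benjamini-Hochberg adjustment of the p-values differed from the deposited q by at most 5.24e-07.

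The SE of a log2 ratio is its size divided by the normal quantile of the two-sided p. For test statistics under 0.1 in size the statistic, times 1.42 (the median quotient over 4845 genes), replaced the quantile. Intervals are 95% and cover what Cuffdiff modelled. Fragments were estimated from steps of low values of protein-coding genes with 1 transcript: of values up to 3 steps, the share within 0.15 of a whole step was 71.1% for q1 and 70.3% for q2 (30% if spread evenly; the fit used these values). Transcripts, coordinates and overlaps come from GENCODE M21 (GRCm38, the assembly of mm10), 1 principal transcript per gene. Near-identical means at least 90% identity over at least 200 nt (BLAST 2.17.0). The length and GC trend was a plane through the 200 nearest protein-coding genes. Numerical steps (Python 3.11.15, scipy 1.17.1) were tested on data simulated under the assumptions of each step. That checks the code, not whether the deposited values meet those assumptions. The members and lists were chosen with earlier results of these data known. Of each pathway list up to 4 genes are named, those that passed first and then the highest.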

Additional observations from a re-analysis of the deposited data

How the results depend on the processing

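No member passed as higher in q2 under any setting run. As higher in q1, 0 passed at a q under 0.05, 0 at a q under 0.01 and 0 when the adjustment was repeated over genes with a higher value of at least 10, which left out none. At a q under 0.10 there was 1 (Suz12). At an unadjusted p under 0.05 there were 2, and with a minimum of 20, chosen after the data were seen, there was 1 (Suz12). The median log2 ratio of PRC1 went from 0.04 over 8 tested members to -0.20 over the 16 above 0 in both conditions. The medians differ by the untested genes added, none above 11.7 FPKM. Their ratios were -1.64 (Pcgf1), -0.98 (Rybp), -0.49 (Pcgf5), -0.38 (Phc2), -0.32 (Phc3), -0.17 (Yaf2), 0.36 (Bmi1) and 0.47 (Ring1). Why these ratios differ from those of the tested genes was not tested. The other medians moved by less than the median SE of their members under the settings run, but those near 0 changed sign: with ratios recentred on the upper quartiles, a shift of 0.14, COMPASS had -0.07, PRC1 -0.10 and all members -0.13. Of the 22 single ratios 4 changed sign when recentred on the median of all genes and 8 on the upper quartiles. With the length and GC trend removed 9 changed sign and 6 moved by more than their SE, Suz12, Mtf2, Rbbp4, Rnf2, Pcgf3 and Men1. Adding a pseudocount of 1 moved none by that much. No paired analysis was possible because single libraries have no columns, and no library could be left out for the same reason. The 13 untested members had at most about 74.3 fragments in either condition, a range that overlaps the tested members (from 56.5). By FPKM they did not overlap: no untested member was above 11.7, while every tested gene reached at least 13.95 in 1 of the conditions. The cause of the missing tests was not tested.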
